A study of Rattus norvegicus with 6 samples.

Results

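The genes described here move calcium in adrenal cells or carry its signal onward. They encode voltage-gated calcium channels, release channels of internal stores, calcium pumps, calmodulin, calmodulin-dependent kinase II (CaMKII), the phosphatase calcineurin and protein kinase C. The list names 31 genes, and every probe set that the array annotation gives to 1 of them alone was taken. That gave 69 probe sets for 30 genes, out of 8740 probe sets on the array after controls were left out. No probe set was named for Calm3. The RNA came from adrenal glands of 2 inbred rat strains, the spontaneously hypertensive rat (SHR, 3 arrays) and the Wistar-Kyoto rat (WKY, 3 arrays), its usual normotensive comparator. Age, sex, treatment and the number of animals per sample are not given in the labels, so p-values measure the spread between these arrays, which may be technical. Each value is the deposited intensity of a probe set, a group of short oligonucleotides on an Affymetrix RG-U34A array. The annotation gives several gene symbols to 308 probe sets, so a probe set need not be specific to 1 transcript.

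The adrenal medulla and cortex both use calcium as the trigger for hormone output. In medullary chromaffin cells, depolarization opens voltage-gated channels and the entering calcium releases catecholamine granules. In the zona glomerulosa, the outer cortex, angiotensin II acts through phospholipase C, inositol trisphosphate and protein kinase C, while potassium opens voltage-gated channels, and the calcium signal turns on aldosterone synthesis through calmodulin and its kinases. Pumps then return calcium to the endoplasmic reticulum or out of the cell.

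Array medians lay between 801 and 903, and log2 values correlated at 0.935 to 0.956 within a strain and 0.911 to 0.929 between strains, across probe sets, which are not independent. The 3' to 5' hexokinase control ratio, which rises as RNA degrades, was 4.21 in SHR replicate 2 and 1.96 to 2.54 elsewhere, while the same ratio for GAPDH was 0.947 in that array and 0.901 to 1.14 over all 6. Runs were inferred from the time of day of hybridization, a gap of over 60 minutes starting a new run. SHR replicate 1 fell in 1 run with the 3 WKY arrays, and SHR replicates 2 and 3 in a later run. The later run held no WKY array, so run and strain are partly confounded. SHR replicate 2 shared a fluidics module with WKY replicate 1, and SHR replicate 3 with WKY replicate 2. SHR replicate 1 and WKY replicate 3 were each alone in a module. With the module as a block, the strain difference therefore rests on the arrays that shared a module. Their SHR arrays were in the later run and their WKY arrays in the first, so that fit cannot separate strain from run. Of the chromaffin markers listed, 10 of 10 were above the intensity filter, and of the cortex markers 7 of 7 measured. Summed chromaffin marker intensity ran from 43125 to 54283 in SHR and from 57032 to 65536 in WKY, with Dbh called lower. The chromaffin markers did not move together. Pnmt had means of 13549 in SHR and 20127 in WKY, Dbh 2513 and 6425, and Scg2, Slc18a1, Npy and Penk were also lower. Th (12189 and 12284) and Chgb (10234 and 10800) overlapped. Ddc (5787 and 5240) and the brighter Slc18a2 probe set (824 and 374) had the higher mean in SHR. The cortex sums overlapped (301673 to 430793 against 324331 to 475436). Neuron and Schwann cell sums were also lower in SHR (6754 to 8442 against 8978 to 10650; 6 of 9 markers above the filter). Pmp22 had means of 2298 in SHR and 3206 in WKY. S100b, below the filter, had 143 and 868, with WKY replicate 1 at 1941. Snap25, Gap43, Nefl and Nefh were also lower, while Syn1 (1816 and 1615), Nefm (294 and 119) and Mbp (617 and 609) were higher. Fibroblast sums were lower too (52798 to 62329 against 81443 to 96610; 8 of 8). Of these markers, 7 probe sets of Col1a1, Col1a2, Col3a1, Dcn and Fn1 were called lower. In that sum the brightest marker, Sparc, was higher in SHR (39663 and 37261) and the others lower. The Sparc probe sets outside the sum had lower means in SHR. Smooth muscle sums were higher (8602 to 9295 against 5428 to 7533; 3 of 6), with 1 Acta2 probe set called higher. In that sum Acta2 had means of 3946 in SHR and 1442 in WKY, and Tagln 3310 and 3052. Actg2 (556 and 502) was also higher in SHR, while Myh11 (612 and 666), Cnn1 (415 and 473) and Des (176 and 222) were lower. Leukocyte sums overlapped (12391 to 15942 against 12872 to 29204; 6 of 8 above the filter), although 3 probe sets of Cd74 were called lower. The sums also overlapped for endothelium (8537 to 9372 against 7012 to 10225; 4 of 5) and striated muscle (7903 to 9482 against 7806 to 8986; 6 of 12). Adipocyte sums ran from 28648 to 29468 in SHR and from 29552 to 53185 in WKY (5 of 6), with Cfd called lower. The part of these marker and RNA control differences in the values that follow was not tested. In whole glands, fewer cells of a type and less RNA per cell cannot be told apart.

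The comparison asked which of these transcripts differ between the SHR and the WKY gland, and none of the tested probe sets passed. Of the 69 probe sets, 30 were bright enough to test (19 genes) and 39 were not. Among the 30, limma called 0 higher and 0 lower in SHR at an adjusted p under 0.05, where 1.95% of all 5244 tested probe sets were called (1.07% higher and 0.877% lower). At an unadjusted p under 0.05 there were 4 (13.3%) against 13.9% of the whole array, a share near the background. Those 4 were 2 probe sets of the kinase gene Prkce and 1 of the channel subunit gene Cacnb1, all with higher means in SHR, and 1 of the channel gene Cacna1g, with the lower mean. Of the whole array 6.77% had such a p with the higher mean in SHR and 7.11% with the lower. The 3 arrays of each strain did not overlap in 7 of the 30 (23.3%), and in 20.7% of all tested probe sets. SHR lay above in 6 of the 30 and below in 1, beside 10.2% and 10.5% of all tested probe sets. Those 6 were 3 probe sets of Prkce, 2 of Atp2a2 and 1 of Cacna1d, so they rest on few genes.

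Differences are given from here on as SHR minus WKY on the scale log2(intensity + 181.5), which understates changes of dim probe sets. They ran from -0.62 to 0.74 over the 30 tested probe sets, with a median of 0.14 beside -0.007 over the whole array. A positive difference was found in 22 of the 30 (73.3%), and in 49.1% of all tested probe sets. That lean was not seen in the 39 dim probe sets, of which 13 were positive without the filter (median -0.08), so that 35 of all 69 were positive, beside 48% of the unfiltered array. None of the 30 tested members differed by more than 1, a 2-fold change on this scale, against 4.1% of all tested probe sets. A dim Cacna1d probe set did without the filter, at -1.16. The 95% interval of the difference lay wholly within 1 on either side of 0 for 21 of the 30, and within 0.5 for 6. The counts rest on probe sets that share genes, since 6 of the 19 tested genes had more than 1.

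**Figure D1:**
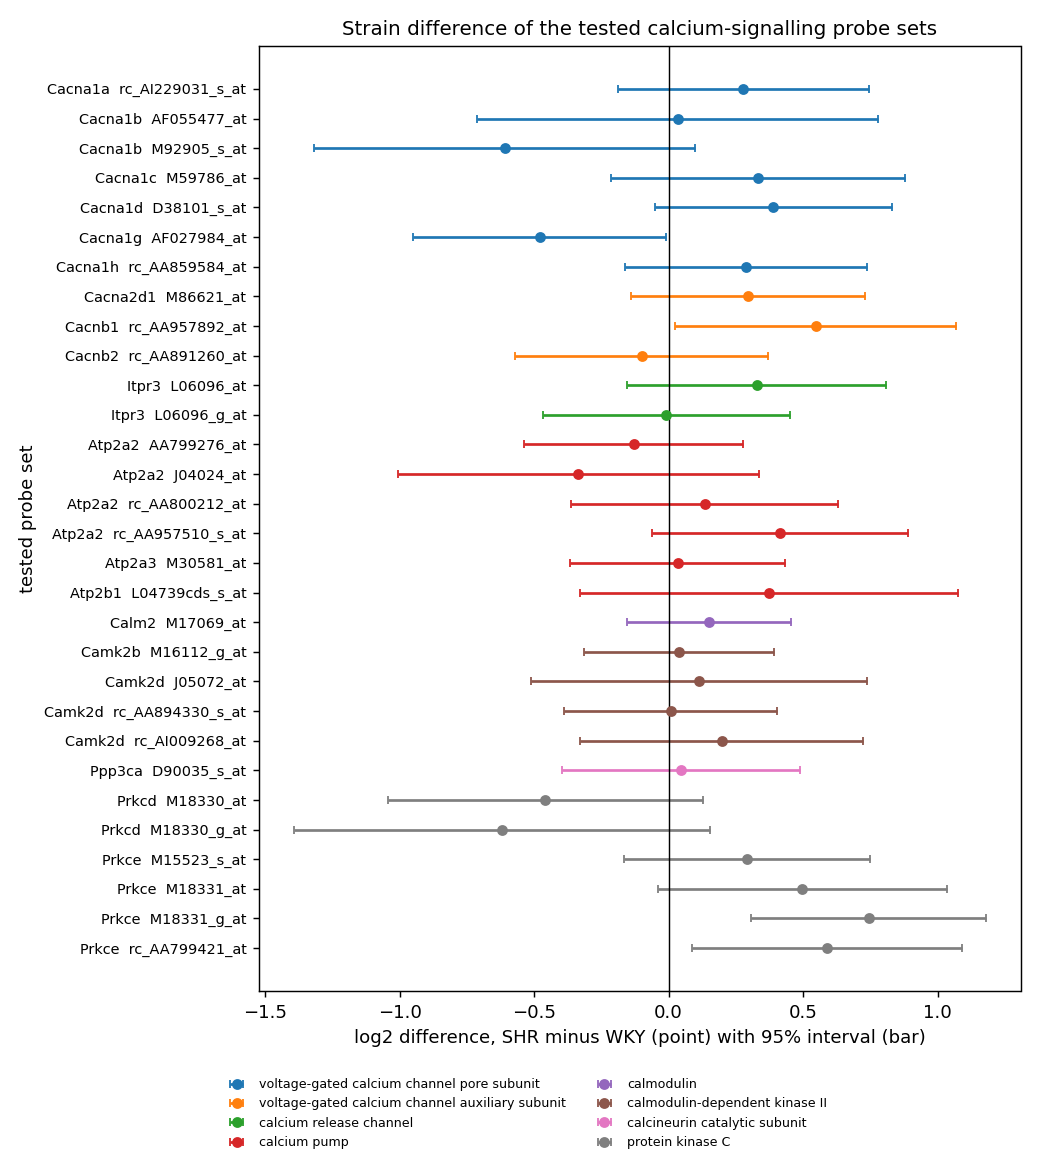
Log2 difference (SHR minus WKY, x axis) of each of the 30 tested probe sets, coloured by role, with the limma estimate as a point and its unadjusted 95% interval as a bar (n = 3 arrays per strain). All points lie between -0.62 and 0.74, and 4 intervals leave out 0, those of Cacna1g, Cacnb1 and 2 Prkce probe sets.

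Pore subunits form the channel itself and set its type. All 6 genes had at least 1 tested probe set (7 of 16), and 0 passed. Cacna1g, which encodes the T-type channel Cav3.1 that opens near resting potential, gave 2386.1, 1741 and 1681 in SHR replicates 1 to 3 and 2521.6, 2411.3 and 3377.7 in WKY. Every SHR array lay below every WKY array, as in 10.5% of all tested probe sets. The gap was narrow, with SHR replicate 1 close to WKY replicates 1 and 2. The log2 difference was -0.48 ± 0.20 (SE; limma adjusted p = 0.347). With run as a blocking term it stood at -0.19, a fit that sets only SHR replicate 1 against the WKY arrays.

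Cacna1d encodes the L-type channel Cav1.3, which opens at low voltage and takes part in the pacemaking of chromaffin cells. It had 5 probe sets, 1 of them tested. That probe set (D38101_s_at) gave 1588.7, 1305.8 and 1600 in SHR and 959.9, 1264.2 and 1082.7 in WKY. The SHR arrays lay just above the WKY arrays, as in 10.2% of all tested probe sets, with a difference of 0.39 ± 0.19 (SE; limma adjusted p = 0.414). A second, dim probe set (M99221_s_at) ran the other way, at 161.4, 85.5 and 111.4 in SHR and 487.3, 441.2 and 539.2 in WKY. It was below the filter, and without the filter its difference was -1.16 ± 0.21 (limma adjusted p = 0.0602), the smallest adjusted p among the dim probe sets described here. The other 3 overlapped between strains, at -0.32, -0.08 and -0.34. The probe sets of Cacna1d therefore gave no common direction.

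The other pore subunits overlapped between strains. Cacna1a, whose product Cav2.1 carries P/Q-type current in nerve terminals and chromaffin cells, gave 3447.2, 3462.2 and 2767.5 in SHR and 2484, 2122 and 3378.6 in WKY. WKY replicate 3 sat among the SHR arrays, and the difference was 0.28 (95% interval -0.19 to 0.75; limma adjusted p = 0.593). It was 0.14 without WKY replicate 2 and 0.45 without WKY replicate 3. Its other 3 probe sets were below the filter, with means from 176 to 438. The dimmest of them (AF051527_s_at) gave 234.1, 193.4 and 181.2 in SHR, all above the 148.4, 154.8 and 145.2 of WKY, at 0.21 ± 0.16 without the filter. Cacna1b, the N-type channel Cav2.2, had 2 tested probe sets that disagreed, at 0.03 ± 0.32 and -0.61 ± 0.31 (limma adjusted p = 0.979 and 0.421). Cacna1c, the L-type channel Cav1.2 of heart and vessels, stood at 0.33 ± 0.24 (adjusted p = 0.583) in the 1 of its 3 probe sets that was tested. Cacna1h, the T-type channel Cav3.2 of glomerulosa cells, stood at 1371 ± 233 in SHR and 1081 ± 46.8 in WKY (mean ± SD, n = 3 each), a difference of 0.29 (95% interval -0.16 to 0.74).

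Auxiliary subunits bring the pore to the membrane and tune its gating. Of the 5 genes, Cacna2d1, Cacnb1 and Cacnb2 were tested, with 0 passing. Cacnb1, a cytosolic beta subunit, gave 2671, 2089.1 and 2384.4 in SHR and 2172.6, 1414.4 and 1236.9 in WKY. SHR replicate 2 lay below WKY replicate 1, so the strains overlapped. The difference was 0.55 ± 0.23 (SE; limma adjusted p = 0.329). It was 0.32 with the fluidics module as a block, a fit that sets SHR replicates 2 and 3 against WKY replicates 1 and 2. Cacna2d1, the alpha-2-delta subunit that binds gabapentin, gave 17377.5, 12964.4 and 15485.8 in SHR and 13294.1, 14744.1 and 9569.5 in WKY, at 0.29 (95% interval -0.14 to 0.73). That difference was 0.02 with the fluidics module as a block, 0.49 with run as a blocking term and 0.11 without WKY replicate 3. Cacnb2 was at -0.10 ± 0.20 in the tested 1 of its 2 probe sets. Cacnb3 and Cacnb4 were below the filter, with means of 471 and 288.

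**Figure D2:**
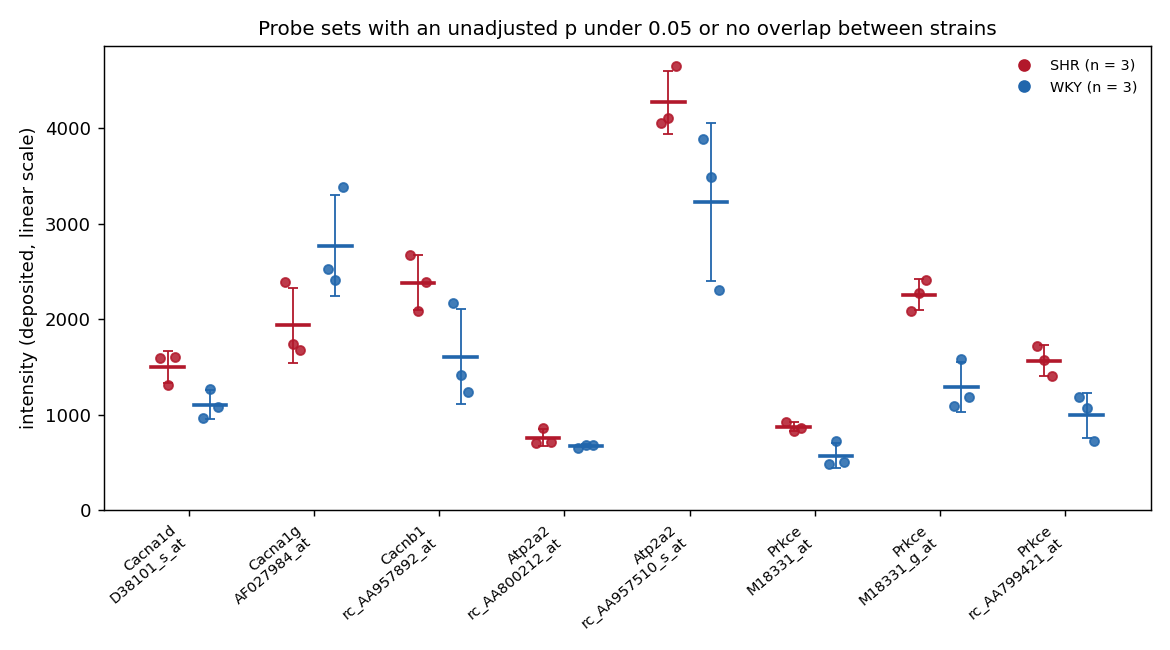
Deposited intensity (y axis, linear, from 0) by array for the 8 tested probe sets with an unadjusted p under 0.05 or no overlap between strains; points are arrays, horizontal lines means and bars SD (n = 3 per strain). In 7 of the 8 the strains do not overlap, and Cacnb1, with SHR replicate 2 at 2089.1 and WKY replicate 1 at 2172.6, is the exception.

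Release channels let calcium out of the endoplasmic reticulum. Of 9 probe sets, only the 2 of Itpr3, 1 of the inositol trisphosphate receptors, were bright enough to test. They come from 1 sequence record and stood at 0.33 ± 0.21 (L06096_at) and -0.009 ± 0.20 (L06096_g_at), with limma adjusted p of 0.534 and 0.991. The second gave 5616.7, 3489.3 and 5575 in SHR and 4854.6, 4683.5 and 4910.4 in WKY. SHR replicate 2 was the low array there, while the WKY arrays lay close together, so the SHR values enclosed them.

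The receptors Itpr1 and Itpr2 and the ryanodine receptor Ryr2, the release channel of heart muscle and neurons, gave only dim probe sets. Itpr1 had 5, with means from 55.9 to 455. One of them (M64698_s_at) read 230.6, 424.3 and 163.1 in SHR and 20.4, 66.4 and 42.4 in WKY, without overlap. Without the filter its difference was 0.98 ± 0.23 (SE; limma adjusted p = 0.129), and the other 4 Itpr1 probe sets lay between -0.15 and -0.04. Itpr2 read 334.1, 74.4 and 342.2 in SHR, all below the 503.8, 526.4 and 374.6 of WKY (-0.66 ± 0.33). Ryr2 read 418.9, 394.9 and 470.1 in SHR, all above the 258.4, 166.4 and 377.6 of WKY (0.47 ± 0.26), and neither passed without the filter (limma adjusted p = 0.532 and 0.567).

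Over all 39 dim probe sets, 0 passed without the filter, where 0.95% of the whole unfiltered array was called, and 4 had an unadjusted p under 0.05, as did 11.1% of that array. Besides the Cacna1d and Itpr1 ones, those were 1 of Camk2g (-0.89, limma adjusted p = 0.382) and 1 of Prkcb (-0.38, adjusted p = 0.423). The strains did not overlap in 7 of the 39, higher in SHR in 3 and lower in 4. Among all 3496 probe sets below the filter 11.8% did not overlap, with SHR above in 5.32% and below in 6.44%.

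**Figure D3:**
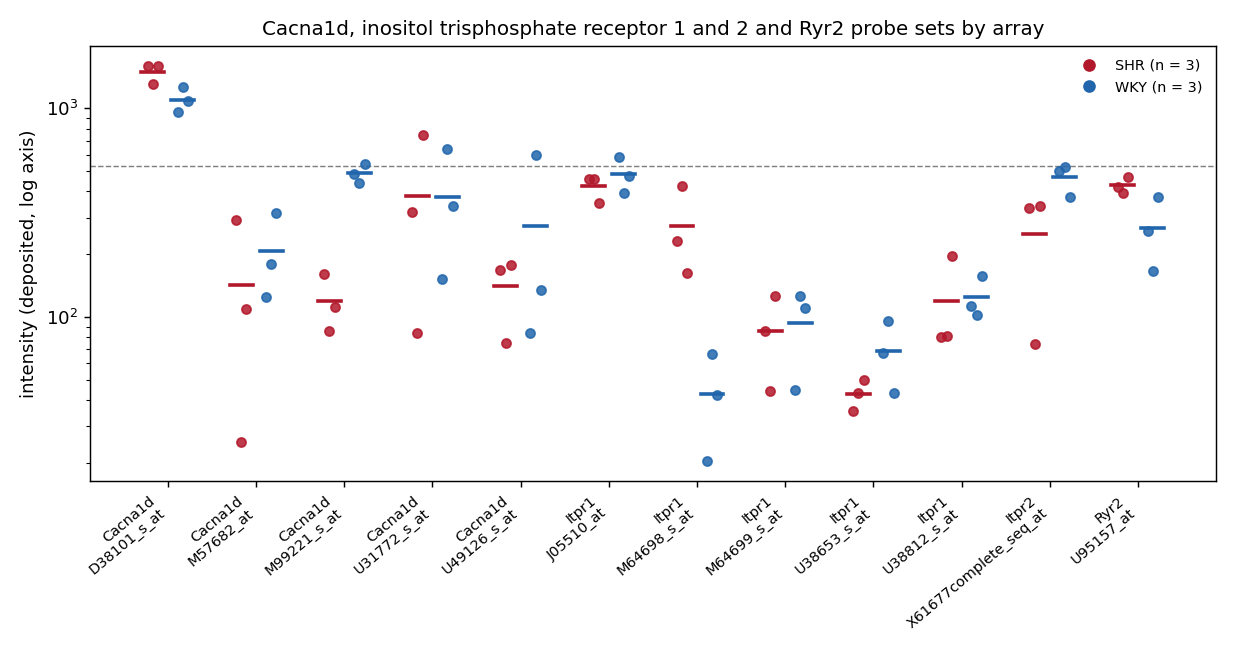
Deposited intensity (y axis, log scale) by array for every probe set of Cacna1d, Itpr1, Itpr2 and Ryr2; points are arrays, short lines means (n = 3 per strain), and the dashed line marks the filter's level, 530 as a mean over arrays on the log scale used. The Cacna1d probe set M99221_s_at is lower in all SHR arrays and the Itpr1 probe set M64698_s_at is higher in all of them, both below the line.

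Calcium pumps end the signal. Of 12 probe sets 6 were tested, in Atp2a2, Atp2a3 and Atp2b1, and 0 passed. Atp2a2 encodes SERCA2, which refills the endoplasmic reticulum, and its 4 probe sets were all tested, at -0.13, -0.34, 0.13 and 0.41 (limma adjusted p from 0.418 to 0.839). The brightest (rc_AA957510_s_at) gave 4057.1, 4102.3 and 4649.3 in SHR and 3886.3, 3486.2 and 2302 in WKY. These did not overlap, and much of the difference lay in WKY replicate 3, without which it was 0.20; it was 0.24 with the fluidics module as a block. Another (rc_AA800212_at) gave 698.5, 862.5 and 716.3 against 653.9, 684.9 and 681.4, also without overlap but within 0.13 ± 0.22. Since 2 of the 4 were positive and 2 negative, Atp2a2 gave no common direction.

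Atp2a3, which encodes SERCA3, stood at 0.03 (95% interval -0.37 to 0.43). Atp2b1 encodes a plasma membrane pump that extrudes calcium. Its tested probe set gave 1391.6, 762 and 629.7 in SHR and 694, 750.4 and 499 in WKY, where SHR replicate 1 alone stood out. The difference was 0.37 ± 0.30 over all arrays and 0.94 with run as a blocking term (limma adjusted p = 0.464), a fit that rests on that array. The other 2 Atp2b1 probe sets were below the filter. The brighter of them (rc_AI172499_at) ran the other way, with 405.3, 304.4 and 507.8 in SHR all below the 675.4, 540 and 653.1 of WKY (-0.46 ± 0.26 without the filter, limma adjusted p = 0.570). All 4 probe sets of Atp2b2, a pump best known from neurons and hair cells, were below the filter too.

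Calmodulin, CaMKII and calcineurin had 6 tested probe sets, 0 of which passed, with differences from 0.008 to 0.20. Calm2, 1 of 3 genes encoding the same calmodulin protein, gave 11885.5, 12761.8 and 12914.1 in SHR and 11603.7, 9778.8 and 12559 in WKY. The strains overlapped, and the difference was 0.15 (95% interval -0.16 to 0.46; limma adjusted p = 0.672). It was 0.05 without WKY replicate 2, 0.23 without WKY replicate 3, 0.08 with run as a blocking term and 0.27 with the fluidics module as a block. CaMKII decodes calcium spikes through calmodulin, and its isoforms are named alpha, beta, delta and gamma. Camk2b, the beta isoform, gave 2440.2, 2211.4 and 2612.7 in SHR and 2481.5, 2355.3 and 2207 in WKY by 1 probe set (0.04, 95% interval -0.31 to 0.39). Its other probe set, from the same sequence record, read 14.1 to 23.7 in all arrays, so they disagree on the level of Camk2b. Camk2d, the delta isoform of heart and smooth muscle, had 3 tested probe sets of 6, at 0.11, 0.008 and 0.20 (adjusted p from 0.751 to 0.991). The probe sets of Camk2a (2) and Camk2g (3) were all below the filter, with means from 105 to 585 for Camk2g and from 144 to 243 for Camk2a.

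Calcineurin dephosphorylates the NFAT transcription factors, and Ppp3ca encodes its alpha catalytic subunit. Ppp3ca gave 2121.8, 3058.6 and 2342.4 in SHR and 2091.5, 2363.1 and 2769.5 in WKY. The arrays of the strains were interleaved, with a difference of 0.05 (95% interval -0.40 to 0.49; limma adjusted p = 0.945) that was -0.16 with run as a blocking term. Ppp3cb, the beta subunit, was below the filter with a mean of 415. The widest of these 6 intervals, for 1 of the Camk2d probe sets, reached 0.74.

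Protein kinase C phosphorylates targets downstream of receptors that act through phospholipase C. The conventional isoforms alpha and beta (Prkca, Prkcb) need calcium and diacylglycerol, while the forms delta and epsilon (Prkcd, Prkce) need diacylglycerol but no calcium. Prkce held the highest and Prkcd the lowest difference of the 30 tested probe sets. The 250 bases before the annotated start of each gene are therefore shown, read from RefSeq on assembly GRCr8 on the gene's own strand. Prkce lies at chr6:14204289-14204538 and Prkcd at chr16:5805840-5806089, both on the minus strand. Capitals mark each GC box, the letters GGGCGG or, on the other strand, CCGCCC, overlaps being allowed.
Prkce: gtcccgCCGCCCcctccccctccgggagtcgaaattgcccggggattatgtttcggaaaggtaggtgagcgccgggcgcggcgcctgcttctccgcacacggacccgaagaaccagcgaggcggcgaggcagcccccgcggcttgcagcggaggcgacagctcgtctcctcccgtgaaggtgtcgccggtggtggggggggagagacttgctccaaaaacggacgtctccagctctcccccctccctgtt
Prkcd: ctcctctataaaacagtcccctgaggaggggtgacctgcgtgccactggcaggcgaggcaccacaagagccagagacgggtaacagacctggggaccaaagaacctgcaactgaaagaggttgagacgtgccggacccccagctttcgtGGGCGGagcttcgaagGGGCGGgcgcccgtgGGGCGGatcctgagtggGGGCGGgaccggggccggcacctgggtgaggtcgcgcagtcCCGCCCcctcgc
The Prkcd window holds 5 matches, the first letter of each lying 101, 85, 70, 53 and 12 bases before the start, and the Prkce window holds 1, 244 bases before it. Base composition was alike, at 68.8% G and C for Prkce and 67.6% for Prkcd. A match occurred in 30.5% of all 33469 such windows (median G and C 51.2%) and in 23 of the 27 windows of 24 members (median 73.2%). Windows with 5 or more matches made up 1.72% of all windows and 22.2% of the members' windows. A match is a run of letters, not a shown binding site, and the arrays did not measure promoter use.

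Prkce had the smallest p-value among the 30 tested probe sets. Without the filter the dim probe sets of Cacna1d and Itpr1 given above had smaller ones. All 4 of its probe sets were tested, all 4 had the higher mean in SHR, and 0 passed. The probe set M18331_g_at gave 2087.1, 2271.4 and 2411.4 in SHR and 1086.9, 1586.7 and 1188 in WKY. The lowest SHR array stood well above the highest WKY array. Its difference was 0.74 ± 0.19 (SE; limma adjusted p = 0.110), a 1.67-fold difference on this scale. M18331_at, from the same sequence record, gave 920.8, 828.7 and 864.2 in SHR and 484.8, 723.8 and 504.4 in WKY (0.50 ± 0.23). The third, rc_AA799421_at, gave 1721.7, 1569.1 and 1400.8 against 1185.6, 1065.4 and 727.2 (0.59 ± 0.22; limma adjusted p = 0.275). In both, all SHR arrays lay above all WKY arrays, with the gap narrowest between 828.7 and 723.8 in the first. The fourth, M15523_s_at, overlapped, at 2062.8, 1827.2 and 1448 against 1197.9, 1554.7 and 1491.6 (0.29 ± 0.20). The 4 probe sets share a gene and 2 a sequence record, so they are not 4 independent measurements.

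With run as a blocking term, the 4 Prkce differences were 0.64, 0.56, 0.72 and 0.50 in the same order, with limma adjusted p from 0.565 to 0.699. The probe set rc_AA799421_at stood at 0.35 with the fluidics module as a block. M18331_g_at kept a positive difference in all 18 alternatives tried, from 0.57 to 0.89. Its unadjusted limma p was under 0.05 in 16 of the 18, and run as a blocking term was among the exceptions. It was singled out by its p on these same arrays, so the alternatives are not independent support. Its adjusted p ran from 0.0890 to 0.669, so it passed in 0.

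Prkcd had 2 probe sets, from 1 sequence record, both with the lower mean in SHR. M18330_g_at gave 3603.8, 5230.9 and 2096.9 in SHR and 7518, 4151.7 and 4907.7 in WKY. The strains overlapped, with SHR replicate 3 lowest and WKY replicate 1 highest. The difference was -0.62 ± 0.34 (SE; limma adjusted p = 0.455), and it was -0.29 without SHR replicate 3, -0.38 without WKY replicate 1, -0.91 without SHR replicate 2 and -0.72 with the fluidics module as a block. M18330_at showed the same extreme arrays, with SHR replicate 3 at 1270.6 and WKY replicate 1 at 3191.5 (-0.46 ± 0.25, adjusted p = 0.466). Prkca and the 3 probe sets of Prkcb were below the filter. Prkca read 58.8, 258.2 and 464.3 in SHR and 64.3, 60.6 and 97.9 in WKY, and overlapped through SHR replicate 1. One Prkcb probe set (K03486_s_at) read 58.4, 58.4 and 93.5 in SHR, all below the 98.4, 186.2 and 160.7 of WKY. The other 2 overlapped, at 0.80 ± 0.43 and -0.43 ± 0.51 without the filter.

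**Figure D4:**
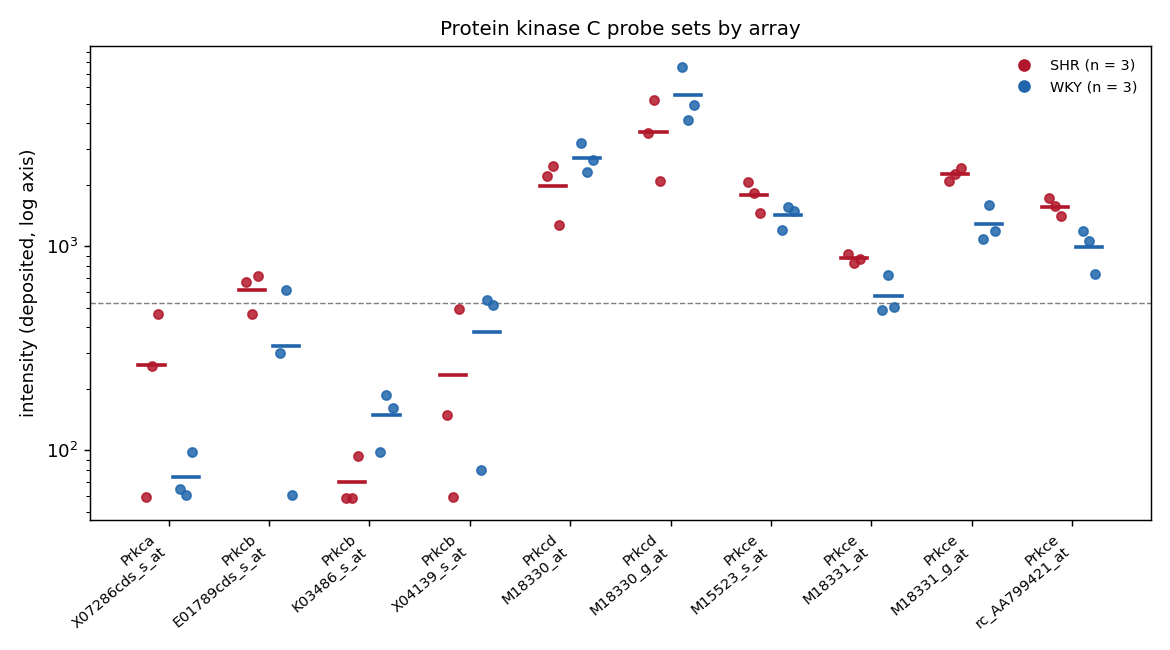
Deposited intensity (y axis, log scale) by array for the 10 protein kinase C probe sets; points are arrays, short lines means (n = 3 per strain), and the dashed line marks the filter's level of 530. All SHR points lie above all WKY points in 3 of the 4 Prkce probe sets, while both Prkcd probe sets overlap.

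**Figure D5:**
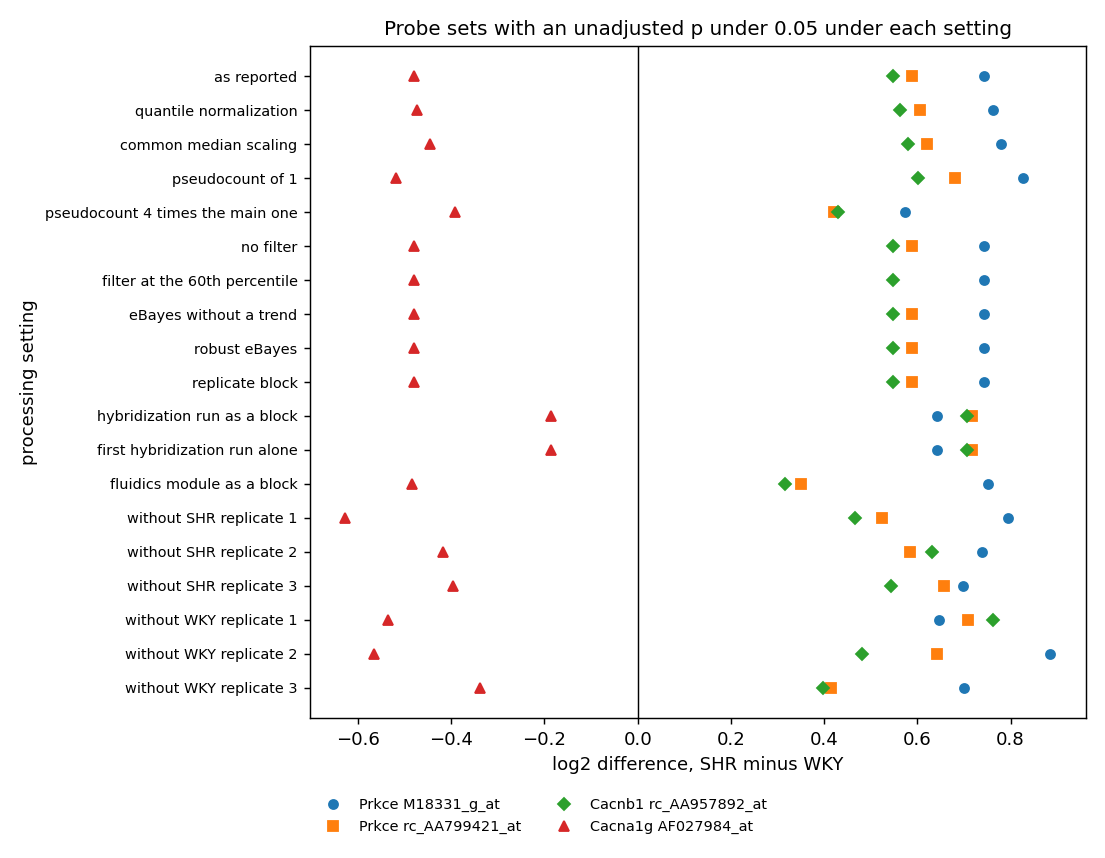
Log2 difference (SHR minus WKY, x axis) of the 4 probe sets with an unadjusted p under 0.05, as reported and under each of 18 processing alternatives (y axis). Every point keeps its sign. Cacna1g ranges from -0.63 without SHR replicate 1 to -0.19 with run as a blocking term, and Cacnb1 from 0.32 with the fluidics module as a block to 0.76 without WKY replicate 1; rc_AA799421_at has no point under the stricter filter, which left it out.

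Further genes of the same signalling were taken as a list of 101, of which 68 had a probe set of their own (113 probe sets, 63 tested). Limma called 0 of the 63, and 3 (4.76%) had an unadjusted p under 0.05, beside 13.9% of the array. The median difference was 0.08 and the strains did not overlap in 13 of the 63 (20.6%), a share near the 20.7% of all tested probe sets. By class, called probe sets were 0 of 8 for other channels, 0 of 9 for other pumps and exchangers, 0 of 25 for calcium-binding proteins, 0 of 13 for other kinases and phosphatases and 0 of 8 for phospholipase C.

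The probe sets of smallest p in that list were those of Marcks, a protein kinase C substrate, the sodium-calcium exchanger Slc8a1, Phkg2, a catalytic subunit of phosphorylase kinase, phospholipase C beta 1 (Plcb1) and Casq1, a calcium store protein of muscle. Marcks stood at 1248 ± 103 in SHR and 1720 ± 121 in WKY (mean ± SD, n = 3 each), a difference of -0.41 ± 0.17 (SE; limma adjusted p = 0.329). Its other tested probe set was at -0.38 ± 0.38. Phkg2 was at 0.67 ± 0.28 (adjusted p = 0.343), Plcb1 at 0.34 ± 0.15 (0.369) and Casq1 at 0.42 ± 0.20 (0.410). The other 2 tested Plcb1 probe sets were at 0.25 and 0.28.

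Slc8a1, like Cacna1d, gave probe sets of opposite sign. U04934_s_at read 494.5, 260 and 431.6 in SHR and 819, 565.9 and 823.3 in WKY (-0.68 ± 0.29), while X68812_s_at read 4703.9, 3277 and 3429.2 against 3044.6, 2934 and 1168.1 (0.72 ± 0.34). Neither overlapped between strains and neither passed (limma adjusted p = 0.341 and 0.395). A further tested Slc8a1 probe set overlapped, at -0.11 ± 0.23, and 2 were below the filter.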

How the data were processed

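The authors deposited an intensity for each probe set on each array. The values are linear, none is negative, and the arrays share a trimmed mean of 2504 after 2% is dropped at each end. How the intensity was summarized and scaled is not given in the sources used here. Of the other values, the deposited instrument settings gave the fluidics module and the time of day of hybridization, from which arrays over 60 minutes apart were put in separate runs (2). Leaving out 59 controls kept 8740 probe sets (7006 with 1 symbol, 308 with several, 1426 with none), named by the array's annotation table. A pseudocount of 181.5, the 20th percentile of the positive values, was added before log2. Testing was limited to the 5244 probe sets with a mean above the 40th percentile.

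Strains were compared with limma 3.58.1 in R 4.3.3 (lmFit, eBayes with an intensity trend, no covariate, two-sided), with Benjamini-Hochberg adjustment over all tested probe sets at 0.05. The members, the further gene list, the marker lists and the tests were chosen with earlier results of these data known. Arrays are given in full for tested members with an unadjusted p under 0.05 or no overlap and for the brightest of each role; from the further list up to 6 probe sets of smallest p are named. Other members given by array were chosen after their values were seen. Marker sums use each gene's brightest probe set. In 10 simulated tables of the comparison of SHR with WKY (5244 probe sets), 5.88% of changes of 0.5 (log2) were called, 46.5% of 1 and 85% of 2, and 4.91% of calls were false.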

Additional observations from a re-analysis of the deposited data

How the results depend on the processing

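Of the 5244 tested probe sets 102 were called. The count was 60 with eBayes without a trend, 53 with the replicate block, 20 with run as a blocking term, 1 using only the first run, 46 with the fluidics module as a block and 36 to 59 with 1 array left out, where fewer samples or residual degrees of freedom remain. No member and no gene of the further list was called under any of the 18 alternatives. The 4 members at an unadjusted limma p under 0.05 (13.3%, beside 13.9% of all tested probe sets) became 8 without the filter (11.6% beside 11.1%). With run as a blocking term the count was 1 (3.33% beside 9.19%), a probe set of Atp2b1 and none of those 4. It was 2 with the module as a block (6.67% beside 12.3%). Without 1 array it was 2 to 4 (6.25% to 13.3%, beside 11.3% to 14.1%). The members' median difference of 0.14 was 0.0077 without the filter, 0.047 with the filter at the 60th percentile, 0.21 with the module as a block and 0.11 to 0.20 without 1 array. It stayed positive in all of them, and the causes of these shifts were not tested.

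Signs were followed for 15 tested members, those with an unadjusted limma p under 0.05, without overlap or brightest of their role. Of their 267 values, 254 kept their sign. Other probe sets given by array were not in this count. The sign of Itpr3 L06096_g_at turned to 0.0090 with quantile normalization, 0.028 with common median scaling and 0.21 with run as a blocking term and using only the first run. Without 1 array it ran from -0.12 to 0.21. Ppp3ca turned to -0.16 with run as a blocking term and using only the first run, and ran from -0.095 to 0.15 without 1 array. Camk2b turned to -0.0074 with the module as a block and ran from -0.013 to 0.099 without 1 array. None of these was called. Replicate numbers did not pair the arrays (correlations of same-numbered deviations 0.0009, 0.01 and 0.07; 2 of 6 arrays matched best with their own number), and the replicate block changed no call of a member. Dim signal limits 39 of the 69 probe sets, and 3 arrays per strain limit the rest.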
